A study of Arabidopsis thaliana with 2 samples.

Results

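The 10 genes described here encode enzymes of leaf starch breakdown in Arabidopsis thaliana, and were examined for LHY-bound regions in seedling chromatin. They were taken by locus as GWD1 (AT1G10760, also called SEX1), PWD (AT5G26570), SEX4 (AT3G52180), BAM1 (AT3G23920), BAM3 (AT4G17090), ISA3 (AT4G09020), DPE1 (AT5G64860), DPE2 (AT2G40840), PHS1 (AT3G29320) and PHS2 (AT3G46970), out of 27444 nuclear protein-coding genes. A region was counted for a gene when its midpoint lay inside the gene or within 2 kb of either end. This gave 15 regions out of 14718 in the list.

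The data come from chromatin immunoprecipitation and sequencing (ChIP-seq) with an antiserum against LHY, a MYB-like protein of the plant clock that binds DNA and is most abundant around dawn. Whole seedlings of the Ws ecotype were 2 weeks old and were taken 2 h after dawn. The wild-type library was set against a library from lhy-21, a line of the same ecotype in which LHY is knocked out, and the same antiserum was used for each. Each library pooled 9 immunoprecipitated samples, and there was 1 library per genotype, so no value has a replicate check and no test between plants was possible. The deposited list holds only regions with more reads in wild-type than in lhy-21 chromatin. Each region carries the authors' score, on a scale that the sources used here do not give, so scores serve only to rank regions within this list. The lowest score in the list was 2.00 and the highest 213. The median score was 10.1, the upper quartile was 22.3, and the median width was 285 bp. The number of reads per library is not known, and a gene without a region is not shown to lack LHY.

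Leaves store starch in the chloroplast by day and degrade it at night. The glucan, water dikinases GWD1 and PWD add phosphate to the granule surface, which loosens it, and SEX4 takes the phosphate off again. Beta-amylases such as BAM1 and BAM3 then release maltose, ISA3 cuts branch points, and DPE1 reworks the short chains that are left. Maltose leaves the chloroplast and is used in the cytosol by DPE2, which passes glucose to a glucan that PHS2 also acts on, while PHS1 is the phosphorylase inside the chloroplast. The circadian clock is known to set the pace of this breakdown so that the store lasts until about dawn.

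All 10 genes had at least 1 region. By the same rule 52.3% of all protein-coding genes had one. The genes are long, with a median of 5100 bp against 2078 bp over all protein-coding genes, and among genes within their range of 2441 to 10099 bp the share with a region was 59.5%. The strongest region scored 177 at PHS1, 111 at PHS2, 88.2 at ISA3, 85.4 at DPE2, 74.5 at PWD, 73.6 at GWD1, 57.7 at BAM3, 26.1 at DPE1, 15.6 at SEX4 and 6.63 at BAM1. The median of these was 74.1, and over all genes with a region it was 15.7. The enzymes at the top of this order are both phosphorylases, the debrancher and the cytosolic maltose enzyme, and the lowest value belongs to a beta-amylase. Of the 10 genes, 6 had a region among the 1000 strongest of the list, which scored 58.0 or more, whereas 6.07% of all protein-coding genes did (6.96% in the same length range). BAM3 fell just short of that line, at rank 1008. Above the median score of the list there was a region at 9 of the 10 genes, BAM1 being the exception, and at 34.5% of all protein-coding genes. These counts describe 1 list, and no test was run on them.

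**Figure D1:**
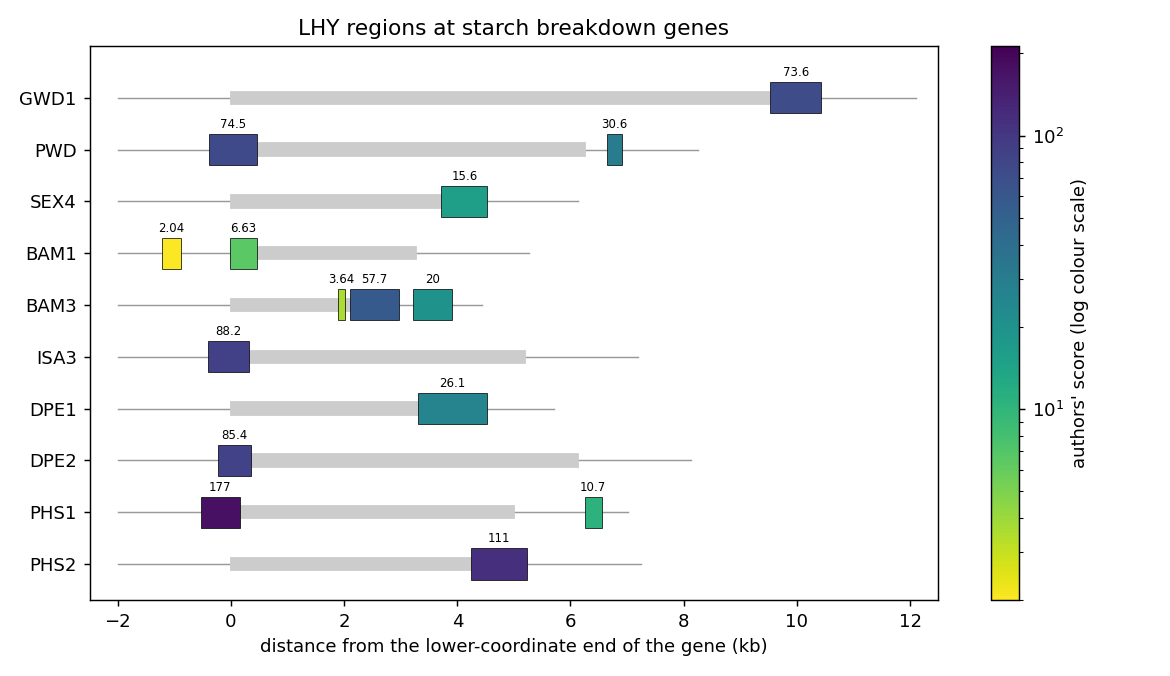
Position of every region at the 10 genes, with each gene drawn to scale from the end with the lower coordinate (distance in kb). Grey bars are genes, thin lines the 2 kb on either side, and boxes are regions coloured and labelled by the authors' score. Each gene has 1 leading region close to an end, from 6.63 at BAM1 to 177 at PHS1.

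**Figure D2:**
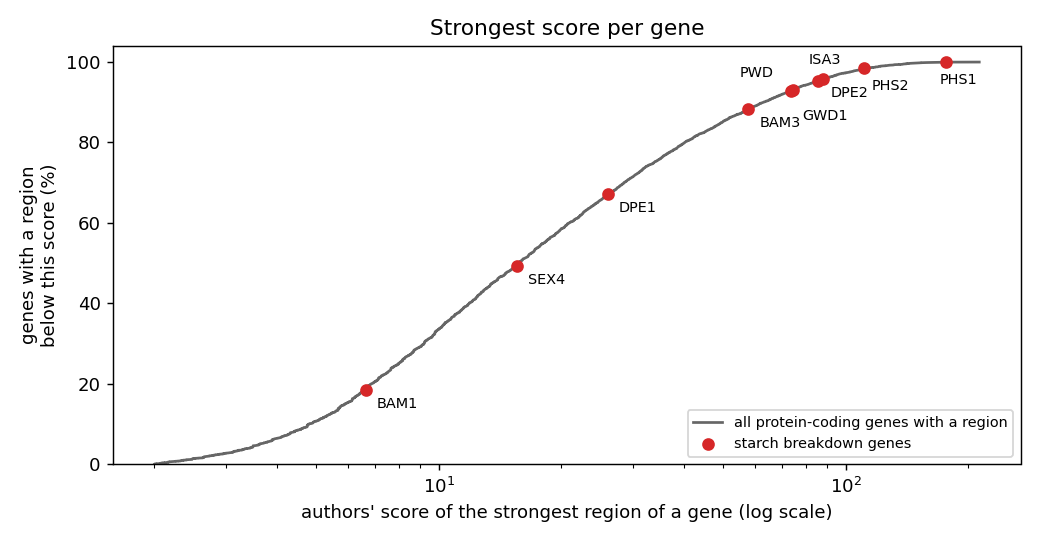
Score of the strongest region of a gene (log scale) against the share of genes with a region that score below it (percent). The grey line holds all protein-coding genes with a region and the red points the 10 starch breakdown genes, of which BAM1, SEX4 and DPE1 lie lower than the other 7, which stand above 88.3% of these genes or more.

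Positions of regions are TAIR9, counted from 1. Genes are described by a lower and a higher end, meaning the end with the smaller or the larger coordinate, because the strand was not used here and a promoter was not told apart from a gene's 3′ side. The seedlings were Ws, whereas the reference genome is that of Columbia.

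Both dikinase genes carried a strong region across one gene end. At GWD1, whose loss gives leaves that keep their starch, the region lay on chromosome 1 from 3590365 to 3591257, scored 73.6 and ranked 587 of the list. Its midpoint was 117 bp inside the higher end, and it reached 329 bp past that end and 564 bp into the gene. No other region of the list had its midpoint within 10 kb of it. The GWD1 midpoint was also within 2 kb of AT1G10770 (822 bp) and AT1G10780 (1869 bp). PWD, which acts on chains that GWD1 has already phosphorylated, had a region of nearly the same score, 74.5, at rank 555. It lay on chromosome 5 from 9261094 to 9261932, with its midpoint 34 bp inside the lower end, and no other protein-coding gene had this midpoint within 2 kb. A weaker region, from 9268116 to 9268385 with a score of 30.6, was centred 519 bp beyond the higher end of PWD and 1032 bp from RR24, a response regulator gene. PWD was thus flanked at each side within 2 kb, while GWD1 had a region at one side only. With a window of 500 bp, only the stronger PWD region was left.

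SEX4, the glucan phosphatase that reverses the action of the dikinases, had a much lower score than either of them. Its region, on chromosome 3 from 19353320 to 19354129, scored 15.6 and ranked 5171. This was close to the median of 15.7 over genes with a region, although its width of 810 bp was similar to that of the dikinase regions, at 893 and 839 bp. The midpoint fell 4 bp inside the higher end of SEX4 and 143 bp from PHF1, a gene of phosphate transporter trafficking, so that the region covers the gap between these genes.

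The beta-amylase genes stood far apart in rank, at 1008 for the leading region of BAM3 and 10002 for that of BAM1. BAM3, the main beta-amylase of leaf starch breakdown at night, had 3 regions on chromosome 4. The strongest, from 9607065 to 9607935, scored 57.7 and was centred 98 bp beyond the higher end of the gene. A narrow region of 112 bp, from 9606857 to 9606968, scored 3.64 and lay inside the gene. The remaining one, from 9608176 to 9608867, scored 20.0 and was centred 1120 bp beyond the same end. These regions were separated by gaps of 96 and 240 bp, and one more region followed after 68 bp, from 9608936 to 9610407, with a score of 74.1 and a width of 1472 bp. The midpoint of that last region was 2270 bp from BAM3, just outside the 2 kb limit, so the stretch next to BAM3 held a higher score than the one counted for the gene. Non-coding genes are also annotated there. The lncRNA gene AT4G06665 was 180 bp from the midpoint of the region scored 57.7, and AT4G02975 was 320 bp from it, while no other protein-coding gene lay within 2 kb of that midpoint.

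BAM1, a beta-amylase known for its part in starch use under stress and in guard cells, had the lowest leading score of the 10 genes. One, on chromosome 3 from 8641159 to 8641646, scored 6.63 and ranked 10002, with its midpoint 222 bp inside the lower end. The other, from 8639969 to 8640292, scored 2.04 at rank 14678 of 14718, and was centred 1051 bp outside BAM1 and 551 bp from AT3G23910. Of all protein-coding genes with a region, 18.4% had a strongest score below that of BAM1, against 88.3% for BAM3.

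ISA3, a debranching enzyme that acts on the granule during breakdown, had 1 region, on chromosome 4 from 5783509 to 5784222, with a score of 88.2 and rank 333. Its midpoint was 44 bp outside the lower end of ISA3 and 402 bp from AT4G09012. There was no region of higher score within 10 kb.

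DPE1 and DPE2 are related glucanotransferases on either side of the chloroplast envelope. The cytosolic DPE2, which uses maltose, had a region on chromosome 2 from 17044700 to 17045293 with a score of 85.4 and rank 375. The plastidial DPE1 had one on chromosome 5 from 25928477 to 25929705 with a score of 26.1 and rank 3095. The DPE1 region was the widest of the 15, at 1229 bp, and the DPE2 region measured 594 bp, so the order of their scores was not that of their widths. The DPE2 midpoint was 65 bp inside the lower end of the gene and 82 bp from RHC1A, which encodes a RING-type protein. That of DPE1 was 212 bp beyond the higher end and 341 bp from AT5G64870. Each of these regions overlapped the ends of both neighbouring genes, and the list does not tell to which of them it belongs.

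The 2 phosphorylase genes had the highest scores, at the plastidial PHS1 and the cytosolic PHS2 alike. The PHS1 region, on chromosome 3 from 11252272 to 11252961, ranked 3 in the whole list. It reached 535 bp beyond the lower end and 155 bp into the gene, and its midpoint was nearer to PHS1 (191 bp) than to AT3G29310 (796 bp). A weak second region at PHS1, from 11259056 to 11259356, scored 10.7 and lay 1392 bp beyond the other end, with AT3G29330 at 132 bp. The PHS2 region, on chromosome 3 from 17305641 to 17306618, ranked 125. It was the one leading region that lay wholly inside its gene, ending 15 bp short of the higher end, with its midpoint 504 bp inside. The nearest end of PHT4;3, a phosphate transporter gene, was 470 bp from that midpoint, closer than the end of PHS2 itself. The region, 978 bp wide, therefore crossed that end of PHT4;3.

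Most leading regions lay across an end of their gene. In 9 of the 10 genes the strongest region spanned an annotated end of that gene, PHS2 being the exception. In those 9 the midpoint was at most 222 bp from that end. In the wider list of 20 genes given below, the strongest region spanned an end in 9 of the 14 genes with one, so the trait is not particular to the 10 genes. Among all genes with a region the strongest one spanned an end in 32.9%, and in 35.3% within the same length range. The leading regions here were wide, with a median of 824.5 bp against 359 bp over all genes with a region. Among genes whose strongest region was at least 488 bp wide, the narrowest width in the 10 genes, the share was 45.5%. This sets only a lower limit on width and does not match the widths of the 10 genes. The median distance from midpoint to gene end was 107.5 bp for the 10 genes and 443 bp over all genes with a region. This distance was not matched for width, gene length or score, and none of the shares was matched for score. The end was the lower one in 5 genes and the higher one in 5.

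**Figure D3:**
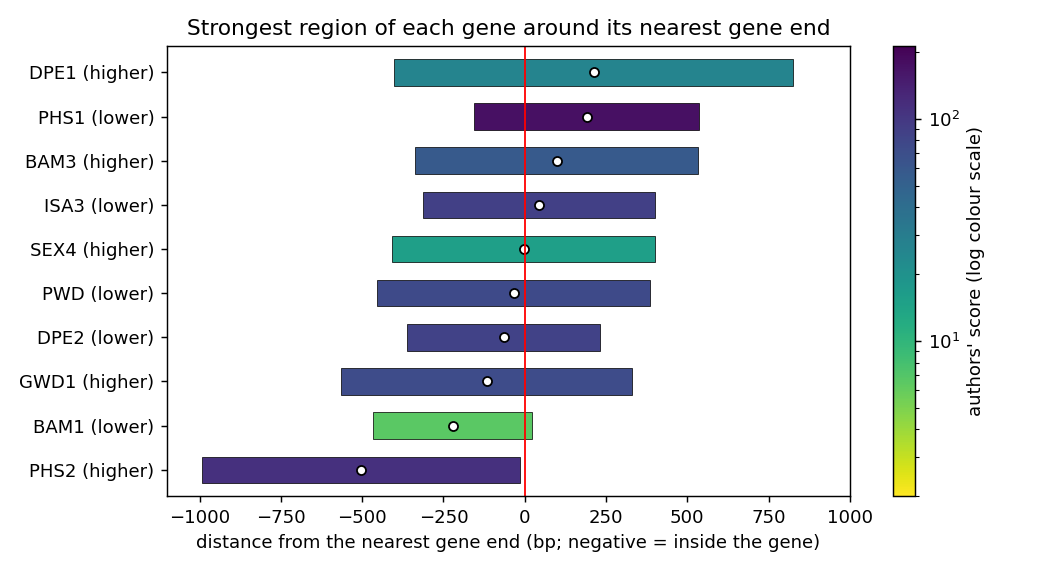
Extent of the strongest region of each gene around its nearest gene end (red line at 0, distance in bp, negative inside the gene), coloured by the authors' score. White points are midpoints, and the nearest end, lower or higher, is given beside each name. In 9 genes the region crosses the end, and at PHS2 it stops 15 bp inside.

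The 5 regions that were not the strongest of their gene scored from 2.04 to 30.6. At 8 of 10 genes, BAM1 and BAM3 being the others, the leading region had no higher-scoring region within 10 kb, as against 52.4% of all genes with a region. That background was not matched for score, and 6 of the 8 had a region among the 1000 strongest. GWD1 and SEX4 had no other region at all within 10 kb, so this share adds little to the scores themselves. Other shares lay near the background. Of the 10 genes 4 had more than 1 region, as did 45.1% of all genes with a region, and the strongest region was also in the 2 kb window of another protein-coding gene for 8 of 10, against 82.2%. No region was centred more than 1000 bp inside from both ends of any of the 10 genes, a stretch of 31470 bp in all, but such regions are rare throughout, with 2.95% of genes longer than 2000 bp and 3.75% of genes in the length range holding one.

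Just beyond the limit of 2 kb lay the region scored 74.1 beside BAM3. The next nearest regions outside it were those at DPE2 (2478 bp, score 9.91), DPE1 (2629 bp, 12.4) and PHS2 (3058 bp, 18.9). For PWD, SEX4 and PHS1 the next region was more than 10 kb away. The regions farthest out within the limit were those at PHS1 (1392 bp, score 10.7), BAM3 (1120 bp, 20.0) and BAM1 (1051 bp, 2.04).

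A wider list of 20 other genes, of starch and maltose breakdown and of the same enzyme families, was counted by the same rule. Not all of these genes act mainly in breakdown. A region was found at 14 of them (70%), beside 52.3% of all protein-coding genes and 59.5% of those of 2441 to 10099 bp. The highest score was 92.3 at BAM6, a little-studied beta-amylase. That region was centred 1568 bp outside BAM6 and was also within 2 kb of another protein-coding gene. A second region at BAM6, centred 125 bp beyond the other end, scored 73.0. Next came LSF1 (80.2), a relative of SEX4 needed for normal starch breakdown, and BAM4 (77.2), a beta-amylase-like protein without activity that promotes breakdown. LDA, the limit dextrinase, had 73.0, and ISA1, a debrancher that works mainly in starch synthesis, had 62.0. The other 9 genes with a region, AMY1, AMY2, AMY3, BAM5, BAM7, BAM9, ISA2, PGLCT and LESV, ranged from 2.66 to 61.3. The median over the 14 was 31.6, and 6 of the 20 had a region among the 1000 strongest, beside 6.07% of all protein-coding genes and 6.96% of those of 2441 to 10099 bp. Genes without a region were BAM2, BAM8, LSF2, GWD2, ESV1 and MEX1, the last of which encodes the maltose exporter of the chloroplast.

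Within families the values were uneven, and the families are too small for their counts to be set apart from the 52.3% of all protein-coding genes with a region. GWD2, a relative of the dikinases, had no region, while GWD1 and PWD had 73.6 and 74.5. LSF1 exceeded SEX4, and LSF2 had none. Of 9 beta-amylase genes 7 had a region, with the strongest score ranging from 6.63 at BAM1 to 92.3 at BAM6. All 4 debranching genes had one, and ISA3 was the highest of them. Of the transporter genes, MEX1 for maltose had no region and PGLCT for glucose had a score of 2.66.

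**Figure D4:**
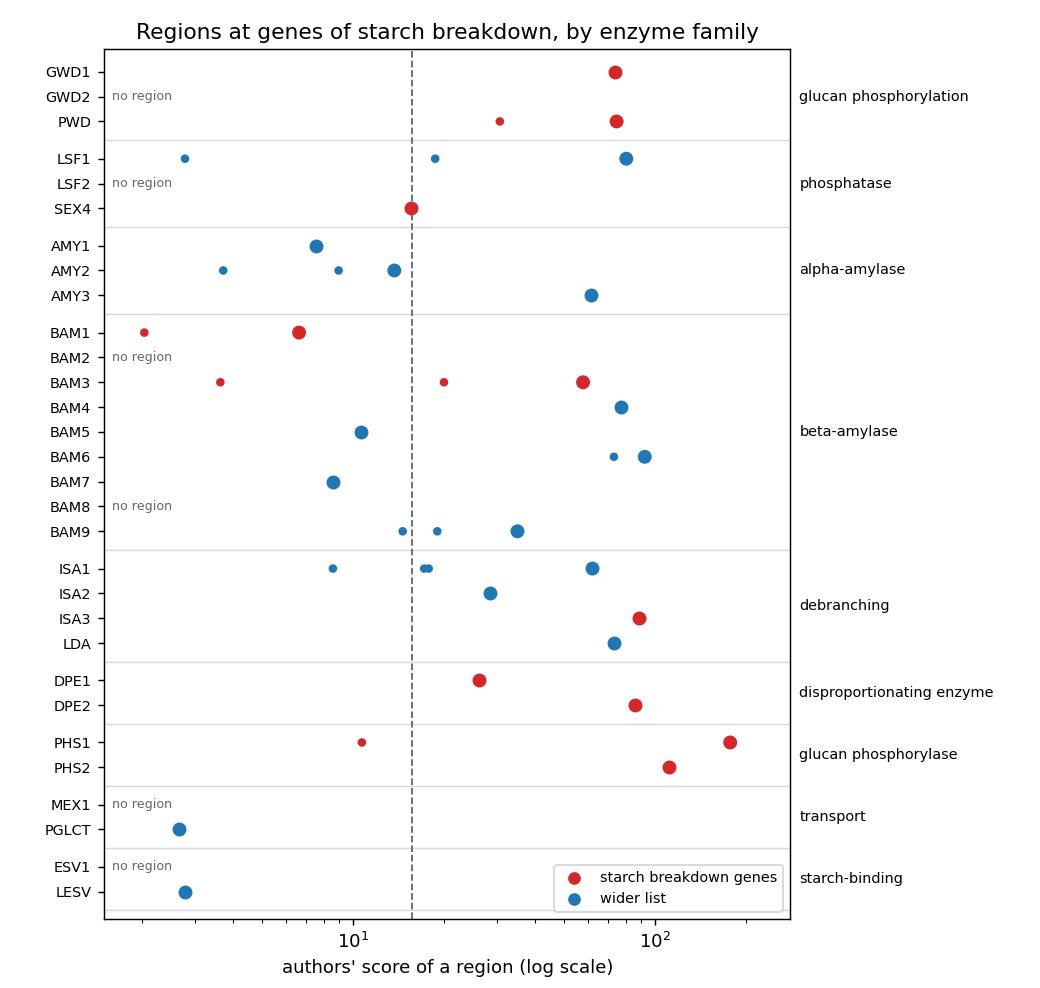
Authors' score of every region (log scale) at the 10 starch breakdown genes (red) and the 20 genes of the wider list (blue), grouped by enzyme family. Large points are the strongest region of a gene, small points its other regions, and the dashed line is the median strongest score of 15.7 over all genes with a region. GWD1 and PWD lie close together, whereas the beta-amylases spread from 6.63 to 92.3 in their strongest scores.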

How the data were processed

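The authors deposited a single region list with positions and a score for every region. Bowtie and the peak caller MACS2 (version 2.0.10.09132012) are named per the submitters' processing notes, as is TAIR9. Per the labels, a region has an excess of wild-type reads over lhy-21 reads. Thresholds and read depth are not given in the sources used here. No intervals could be computed.

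Gene positions came from a RefSeq gene table of TAIR10.1, without strand or exons, and gene coordinates are not printed. TAIR9 and TAIR10 share their nuclear sequences. As a check, midpoints were moved by 500 and 1000 bp in either direction, and on each of the 5 chromosomes fewest lay in genes when unmoved (33.5% to 35.2%). The table's symbols are SEX1 for GWD1, CT-BMY for BAM3, and PWD for both AT5G26570 and AT4G24450 (GWD2), so genes were matched by locus.

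Midpoints were matched to genes with Python 3.11.15 and pandas 2.3.3, and the matching was tested on simulated regions. A region counted for every gene in reach. Members, lists and windows were chosen with earlier results of these data known. All 10 members and all 20 genes of the wider list are named, the latter with scores for the 5 highest. The score of PGLCT was added after the values were seen. The span of gene ends, depth inside genes, neighbourhoods of 10 kb and the length range were chosen after the data were seen. Alternatives were other windows, any overlap, stronger regions only, merging within 200 bp and the nearest gene only. Sequence was not used here, so the planned motif search was left out.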

Additional observations from a re-analysis of the deposited data

How the results depend on the processing

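The count of 10 genes with a region held with windows of 500, 1000 and 3000 bp, any overlap, merging and the nearest gene only. In that order, 36.5%, 43.2%, 60.3%, 53.8%, 52.1% and 34.4% of all protein-coding genes had a region. The count for the 10 genes was 9 above the median score, where BAM1 dropped out, beside 34.5% of all protein-coding genes. It was 6 with the 1000 strongest regions, beside 6.07%. There, 6 regions were left in place of 15 and 6 genes of the wider list in place of 14. Of the 20 genes of the wider list, 12 had a region by the nearest gene only and 10 above the median score. Beside these counts, 34.4% and 34.5% of all protein-coding genes had one. With any overlap the wider list had 15 and with 3000 bp it had 17, beside 53.8% and 60.3%. The number of protein-coding genes with a region was 14348, and became 9478 above the median score, 1665 with the 1000 strongest, 9435 with the nearest gene only and, by an alternative chosen after the data were seen, 6304 of 10588 genes in the length range. These settings use fewer regions, fewer genes or 1 gene per region by construction. With the nearest gene only, 13 of the 15 regions stayed with the 10 genes, and the weaker regions at PHS1 and BAM1 went to neighbours. Where a gene kept a region, its strongest score changed at BAM3 only, to 74.1, with 3000 bp, any overlap or merging. BAM1 had no score left above the median score. With the 1000 strongest regions, SEX4, BAM1, BAM3 and DPE1 had none. The number of regions per gene depended more on the window. With 500 bp, 11 regions were left in place of 15, and PWD, BAM1 and PHS1 had 1 each in place of 2. BAM3 then had 2 in place of 3. No paired analysis was possible because there was 1 library per group and no test. The unknown depth and score scale limit every statement to ranks within 1 list.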
